A study of Mus musculus with 6 samples.

Results

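Acute-phase and antimicrobial secreted proteins were represented by 8 genes of the deposited table: Lcn2, Saa3, Hp, Slpi, Cp, Serpina3g, Serpina3n and Ptx3. They were selected by name out of 41819 genes, with earlier results of the same comparison known, so their differences between the groups are given as a description and not as evidence for the group. The libraries came from a single 3T3 clone, an immortalized line of Swiss mouse embryo fibroblasts that the labels describe as malignant. The clone carries a lentiviral cassette that makes human PARG (hPARG) and, as a separate nuclear reporter, the fluorescent protein mClover3 from the TetOne doxycycline-inducible promoter. The control dishes (n = 3) received no doxycycline and the hPARG dishes (n = 3) received 500 ng/ml doxycycline for 72 h, and both groups carried the cassette and grew in puromycin. Since none of the 6 sequenced dishes received doxycycline without carrying the cassette, in these libraries the drug itself and hPARG cannot be told apart. The 3 dishes of a group were parallel cultures of 1 clone, so p-values measure only the spread between such cultures.

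PARG is the main enzyme that removes poly(ADP-ribose) chains from proteins. Acute-phase proteins are made and secreted in large amounts during inflammation, mainly by the liver, but fibroblasts and epithelia make some of them locally. Their genes are classic targets of NF-kB, C/EBP and STAT3 factors downstream of IL-1, TNF and IL-6. Lipocalin 2 (Lcn2) starves bacteria of iron by binding their siderophores, haptoglobin (Hp) captures free hemoglobin, and ceruloplasmin (Cp) carries copper and oxidizes iron. Serum amyloid A3 (Saa3) is the extrahepatic mouse serum amyloid, Slpi inhibits neutrophil elastase and related proteases, Serpina3g and Serpina3n are serine protease inhibitors, and Ptx3 is a long pentraxin that binds microbes and complement components.

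All 8 are protein-coding genes, located here on GRCm38 with the GENCODE M21 annotation. Lcn2 (ENSMUSG00000026822, chromosome 2, 32384633 to 32388252) and Slpi (ENSMUSG00000017002, chromosome 2, 164354070 to 164389095) lie far apart on chromosome 2. Cp (ENSMUSG00000003617, chromosome 3, 19957054 to 20009145) and Ptx3 (ENSMUSG00000027832, chromosome 3, 66219910 to 66225805) lie on chromosome 3. Saa3 (ENSMUSG00000040026) occupies 46711998 to 46715700 of chromosome 7, and Hp (ENSMUSG00000031722) occupies 109575128 to 109579172 of chromosome 8. Serpina3g (ENSMUSG00000041481, chromosome 12, 104236245 to 104241939) and Serpina3n (ENSMUSG00000021091, chromosome 12, 104406729 to 104414329) belong to the same serpin cluster. Exons of 6 of the 8 genes share no base with another gene, whereas 1.13% of the Cp exon bases overlap Hps3 on the opposite strand and 0.0847% of the Slpi exon bases overlap the microRNA gene Mir7678.

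Start-site sequences were taken from RefSeq (GRCm38.p6) for 7 of the 8 genes, all but Hp, with 8 windows in all because Cp has 2 annotated starts. Sequences for the other 5 genes that passed the filter on low counts are shown, to place the matches to transcription factor consensus motifs that these genes hold. Each runs from 250 bases before the start base to 10 bases from it onwards, in the direction of transcription, and capitals mark a motif match. The Lcn2 window is chr2:32387730-32387989 on the minus strand, the Saa3 window chr7:46715667-46715926 on the minus strand, and the Slpi window chr2:164356498-164356757 on the minus strand. The Cp window is that of the downstream start, chr3:19956999-19957258 on the plus strand, and the Ptx3 window is chr3:66219637-66219896 on the plus strand.
Lcn2: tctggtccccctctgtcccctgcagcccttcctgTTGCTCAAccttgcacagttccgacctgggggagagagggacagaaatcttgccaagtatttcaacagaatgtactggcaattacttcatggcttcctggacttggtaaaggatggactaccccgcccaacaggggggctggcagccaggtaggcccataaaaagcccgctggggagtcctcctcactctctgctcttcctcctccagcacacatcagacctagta
Saa3: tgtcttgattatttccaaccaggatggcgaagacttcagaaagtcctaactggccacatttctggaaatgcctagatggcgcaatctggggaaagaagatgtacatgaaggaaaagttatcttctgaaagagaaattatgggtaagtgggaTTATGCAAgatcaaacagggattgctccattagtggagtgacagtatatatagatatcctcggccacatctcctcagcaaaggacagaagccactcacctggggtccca
Slpi: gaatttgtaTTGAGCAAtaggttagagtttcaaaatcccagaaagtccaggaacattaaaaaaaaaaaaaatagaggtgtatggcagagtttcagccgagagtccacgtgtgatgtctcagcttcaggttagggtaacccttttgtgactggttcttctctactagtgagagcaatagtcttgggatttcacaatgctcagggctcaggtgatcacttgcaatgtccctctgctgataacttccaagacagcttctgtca
Cp: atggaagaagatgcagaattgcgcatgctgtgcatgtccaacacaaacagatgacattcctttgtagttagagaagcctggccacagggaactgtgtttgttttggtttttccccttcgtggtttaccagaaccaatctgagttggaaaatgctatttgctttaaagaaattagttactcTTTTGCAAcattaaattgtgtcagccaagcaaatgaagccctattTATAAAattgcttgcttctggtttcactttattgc
Ptx3: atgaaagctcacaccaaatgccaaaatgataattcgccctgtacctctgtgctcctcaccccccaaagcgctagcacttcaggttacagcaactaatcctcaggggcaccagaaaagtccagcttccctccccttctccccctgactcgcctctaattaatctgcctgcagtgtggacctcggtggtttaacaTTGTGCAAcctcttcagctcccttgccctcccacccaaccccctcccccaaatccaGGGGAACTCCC

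Motifs were searched in the full RefSeq windows of 300 bases, of which the printed sequences leave out the last 40. A C/EBP motif (TTGCNNAA on either strand) was found in 5 of the 8 windows, those of Lcn2, Saa3, Slpi, the downstream start of Cp, and Ptx3, against 10.8% of 32851 promoter windows of 300 bases. With the start base counted as 0, the first base of the match lay at -99 in Saa3, -70 in Cp, -57 in Ptx3, -216 in Lcn2 and -241 in Slpi. The NF-kB consensus, searched on both strands, was found in 2 windows (Ptx3 and Serpina3g) against 8.46% of all promoters. In Ptx3 the overlapping NF-kB matches began at -1 and 0. The STAT motif TTCNNNGAA was found only in the Serpina3g window (8.3% of all promoters), the AP-1 motif TGANTCA only at the upstream Cp start (7.81%), and TATAAA only at the downstream Cp start, on the strand of the gene (8.32%). In Cp the C/EBP match and TATAAA, in capitals, do not overlap. A match is a string of letters and not a measured binding site.

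Each dish gave between 21619908 and 25263818 counts, and 3 counts, taken as the floor of detection, corresponded to 0.117 to 0.141 CPM (the usual counts scaled to library size, here with TMM factors). Without molecular identifiers, the floors and intervals given here cover counting error alone. All 9 fibroblast markers looked at passed the filter on low counts, with a summed level of 6220 to 7975 CPM in control and 7225 to 9135 CPM in hPARG dishes. Of the 9, 0 were called, beside 0.0869% of all tested genes. Of these markers 8 had a log2 fold change above 0 (median 0.38 over the 9), 4 lay entirely above control (Col1a1, Col3a1, Col5a1 and Thy1) and 1 entirely below (Pdgfra). An unadjusted p under 0.05 by edgeR's quasi-likelihood test was found for 5, beside 455 of all 11509 tested genes. With the replicate block the FDR of Col1a1 was 0.000135 at a log2 fold change of 0.59, while 330 of all 11509 tested genes had one under 0.05. The part of this shift in the values of the 8 genes was not tested. The 6 neutrophil markers summed to at most 0.138 CPM in any dish, with Ly6g, Mpo, Elane, Csf3r, S100a8 and S100a9 each at or under 3 counts in every dish. The 7 macrophage and leukocyte markers summed to 1.03 to 1.79 CPM in control and 0.917 to 1.33 CPM in hPARG dishes, and the 5 epithelial markers to 0.585 to 1.23 and 0.596 to 1.01 CPM.

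Per gene length, the 8 genes spanned a wide range in the uninduced fibroblasts. Ptx3 stood first with 46.2 ± 9.90 RPKM (SD, n = 3), where RPKM is the authors' count scaled by gene length and library size. Slpi followed at 21.6 ± 6.11, Cp at 5.69 ± 0.800, Lcn2 at 3.89 ± 0.483, Hp at 2.31 ± 0.593 and Saa3 at 0.914 ± 0.300 RPKM (SD, n = 3). The dishes of each of these genes lay entirely above those of the next one in the order. The order changed in 1 place in hPARG dishes, where Hp (0.327 ± 0.0378 RPKM) stood above Lcn2 (0.110 ± 0.0712 RPKM). The hPARG dishes of Lcn2 overlapped those of Saa3 (0.0465 ± 0.0164 RPKM). Ptx3 alone made up 57.3% of the summed mean RPKM of the 8 genes in control and 74.9% in hPARG dishes.

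**Figure D1:**
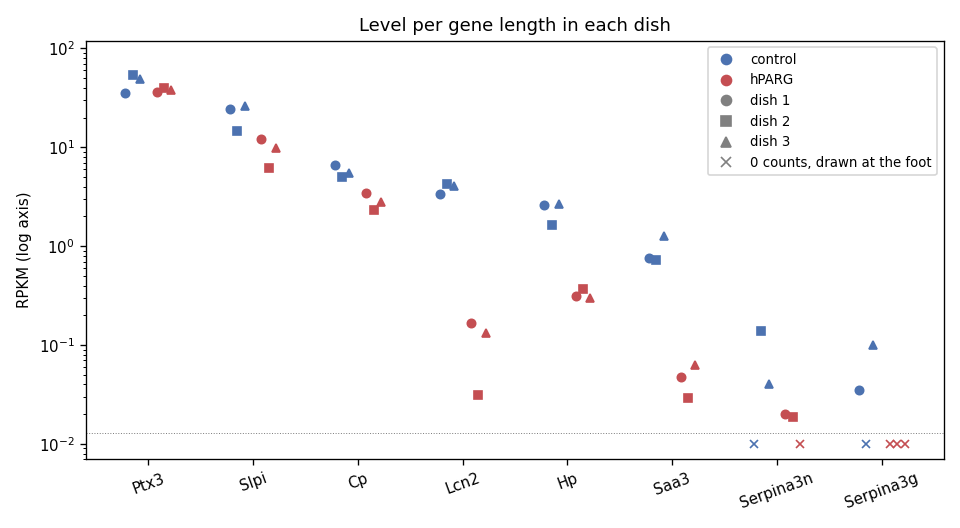
RPKM on a log axis of each gene in each of the 6 dishes, blue for control and red for hPARG, with the symbol giving the dish number and crosses at the foot for dishes with 0 counts. The hPARG dishes of Lcn2 lie below those of Hp, the reverse of the control dishes. Both serpin genes have dishes with 0 counts at the foot, and their other dishes lie at or under 0.140 RPKM.

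To ask how the 8 genes compared between hPARG and control dishes, counts were tested in a fit over all 11509 genes that passed the filter on low counts, which included 6 of the 8. Of these 6, 3 (Lcn2, Saa3 and Hp) were called lower at a false discovery rate (FDR) under 0.05 and more than 2-fold in edgeR's quasi-likelihood test, beside 0.0782% of all tested genes called lower and 0.0869% called in either direction. The hPARG dishes lay entirely below the control dishes for 5 of the 6 (all but Ptx3), as they did for 6.00% of all tested genes. Because the genes were selected with this comparison known, no support is drawn from these counts. The median log2 fold change was -1.97 over the 6 and 0.00385 over all tested genes. With the replicate number of the labels as a block, 4 were called (Slpi in addition). With that block 330 of all 11509 tested genes had an FDR under 0.05 at any fold, beside 10 without it. Leaving out control dish 1 or hPARG dish 1, 2 or 3 in turn left only Lcn2 called, leaving out control dish 3 left Lcn2 and Saa3, and leaving out control dish 2 left all 3. In bulk RNA, fewer expressing cells and less RNA per cell cannot be told apart.

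**Figure D2:**
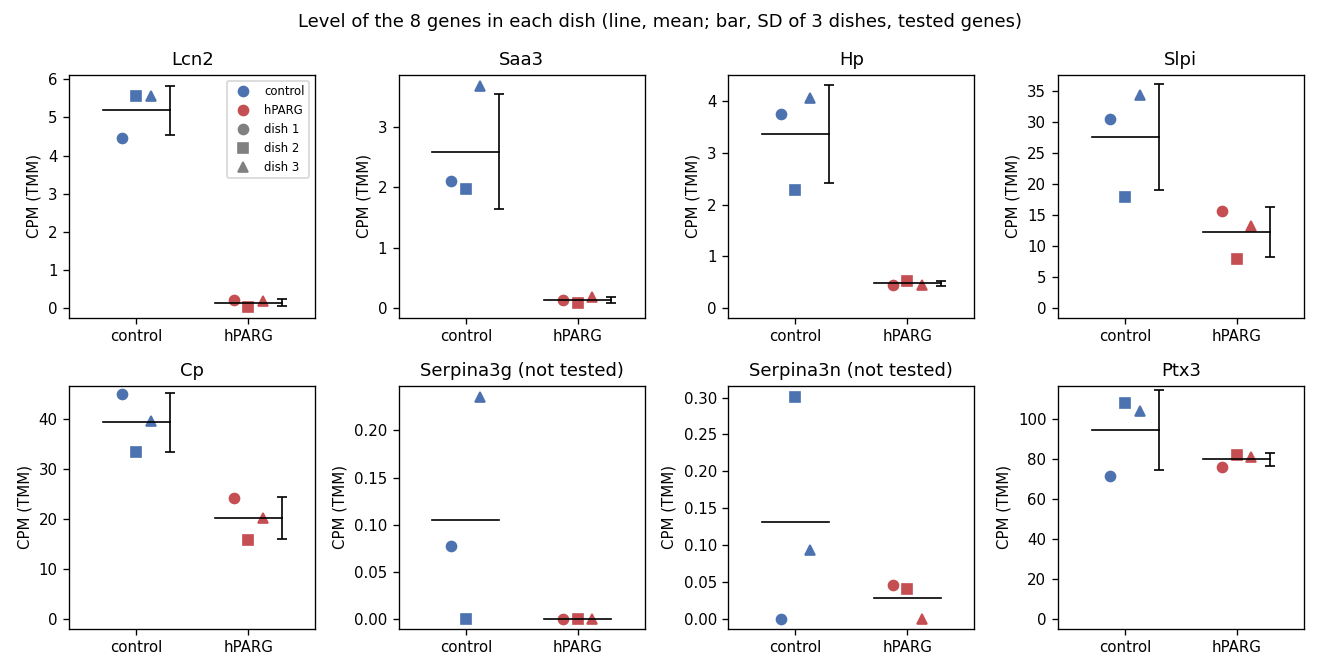
CPM of each gene in each dish, in panels with a linear axis of their own, with lines for the group mean and bars for the SD of 3 dishes in tested genes. In Lcn2, Saa3, Hp, Slpi and Cp the 3 hPARG dishes lie below the 3 control dishes, in Ptx3 the groups overlap, and Serpina3g and Serpina3n stay under 0.31 CPM.

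Among the iron-binding and hemoglobin-binding proteins, Lcn2 and Hp differed most. Lcn2 had 114, 129 and 118 counts in control dishes 1 to 3 and 5, 1 and 4 counts in hPARG dishes 1 to 3. The control dishes were close to each other, and the hPARG dishes lay at or near the floor of 3 counts. The mean level was 5.19 ± 0.639 CPM in control and 0.151 ± 0.0980 CPM in hPARG dishes (SD, n = 3). The fitted log2 fold change was -5.08 (standard error 0.377, FDR = 0.00432 by edgeR's quasi-likelihood test), a 33.8-fold lower level. The 10 counts of the hPARG dishes together have an exact 95% Poisson interval of 4.80 to 18.4 counts, against 361 counts in control, so the size of this fold is imprecise. Lcn2 was called under all 13 alternative settings that could test it, with log2 fold changes from -5.50 to -4.56.

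Hp had 96, 53 and 86 counts in control and 10, 13 and 10 counts in hPARG dishes. Control dish 2 was the lowest of its group, whereas hPARG dish 2 was the highest of its own, and all 3 hPARG dishes were above the floor. The mean level was 3.36 ± 0.948 CPM in control and 0.484 ± 0.0446 CPM in hPARG dishes (SD, n = 3). Its log2 fold change was -2.78 (standard error 0.316, FDR = 0.0299 by edgeR's quasi-likelihood test). Relative to the same-numbered control dish, the level in hPARG dishes was 12.2%, 23.5% and 11.3%. The call was lost without control dish 1 (FDR = 0.176), control dish 3 (FDR = 0.0849), hPARG dish 1 (FDR = 0.286), hPARG dish 2 (FDR = 0.0757) or hPARG dish 3 (FDR = 0.284), while the log2 fold change stayed between -2.99 and -2.62.

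Hp and Cp are abundant in liver, so hepatocyte markers are given beside them. Alb, the major plasma protein gene of hepatocytes, had 41, 144 and 53 counts in control and 107, 21 and 29 counts in hPARG dishes. These groups overlapped, and the dish with the most Alb counts in control was the one with the fewest Hp counts. The 6 hepatocyte markers summed to 2.81 to 7.27 CPM in control and 1.52 to 5.96 CPM in hPARG dishes. Hnf4a, the factor that defines hepatocytes, was at 0 counts in every dish. Apoa1 had 18, 10 and 45 counts in control and 8, 7 and 3 counts in hPARG dishes, too few for the filter. Its fewest control counts were in the same dish as those of Hp, and its hPARG counts were all below its control counts. The part of these markers in the Hp and Cp values was not tested.

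Cp, the copper-carrying ferroxidase, was the most highly counted of the genes with separated groups. It had 1155, 776 and 842 counts in control and 530, 386 and 441 counts in hPARG dishes. Dish 2 was the lowest of both groups, and no hPARG dish reached the lowest control dish. The mean level was 39.4 ± 5.85 CPM in control and 20.1 ± 4.19 CPM in hPARG dishes (SD, n = 3). On the log2 scale the fold change was -0.97 (standard error 0.179, FDR = 0.336). In same-numbered pairs the hPARG dish held 53.9%, 47.7% and 51.0% of the control level. Cp was just short of the 2-fold line and did not pass the FDR in this test. It passed the FDR with the replicate block (1.77e-05), by DESeq2 (0.00114), by edgeR's likelihood ratio test (0.000386) and without both dishes numbered 2 (0.00200), each at a log2 fold change between -0.97 and -0.93. The FDR over 14 alternatives ran from 1.77e-05 to 1.00, and no alternative called Cp at both thresholds.

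Saa3 was the least abundant of the tested genes. It had 54, 46 and 78 counts in control and 3, 2 and 4 counts in hPARG dishes, so that 2 of the 3 hPARG dishes were at or under the floor. The mean level was 2.59 ± 0.945 CPM in control and 0.134 ± 0.0506 CPM in hPARG dishes (SD, n = 3), and the fitted log2 ratio of hPARG to control was -4.22 (standard error 0.453, FDR = 0.0247 by edgeR's quasi-likelihood test). The 9 counts of the hPARG dishes together have an exact 95% Poisson interval of 4.12 to 17.1 counts, against 178 in control. In same-numbered pairs the hPARG dish held 6.53%, 4.17% and 4.99% of the control level. The call was lost without control dish 1 (FDR = 0.0847) and without hPARG dish 1, 2 or 3 (FDR = 0.241, 0.0607 and 0.220).

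The other serum amyloid genes next to Saa3 were almost silent. Saa1, Saa2 and Saa4, which lie 24797, 36090 and 12298 bases away, had at most 1 count in any dish. Saal1, 1318 bases from Saa3, had mean levels of 39.6 (control) and 39.3 CPM (hPARG) and a log2 ratio of -0.01 (standard error 0.170). In the longest Saa3 transcript, 3.91% of all 50-base words also occur in transcripts of other genes, none of them a serum amyloid among the 3 with the most shared words. For Lcn2, Hp, Slpi, Cp and Ptx3 this share was 0%.

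Of the protease inhibitors, Slpi was well expressed and both Serpina3 genes were not. Slpi had 782, 418 and 728 counts in control and 343, 191 and 290 counts in hPARG dishes. The lowest control dish, number 2, was above the highest hPARG dish, number 1, and dish 2 was again the lowest of both groups. The mean level was 27.6 ± 8.55 CPM in control and 12.3 ± 4.02 CPM in hPARG dishes (SD, n = 3), a 2.25-fold difference. The log2 fold change of Slpi was -1.17 (standard error 0.304, FDR = 0.713 by edgeR's quasi-likelihood test). In same-numbered pairs the hPARG dish held 51.5%, 43.8% and 38.8% of the control level. With the replicate block the standard error was 0.0956 and the gene was called (FDR = 3.26e-05), as it was by DESeq2 (FDR = 0.0493), by edgeR's likelihood ratio test (FDR = 0.0370) and without both dishes numbered 2 (FDR = 0.000377). Over the 14 alternatives the FDR ran from 3.26e-05 to 1.00, and the 6 fits that left out 1 dish did not call it.

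Serpina3g had 2, 0 and 5 counts in control and 0 counts in each hPARG dish. Serpina3n had 0, 7 and 2 counts in control and 1, 1 and 0 counts in hPARG dishes. In both genes 1 control dish and 0 hPARG dishes exceeded 3 counts, neither passed the filter, and no fold is given because both group means lay about or under the floor. The zeros of Serpina3g allow up to 3 counts per dish, or 0.124 to 0.138 CPM. These few counts are also uncertain in their assignment, because 16.0% of the 50-base words of the longest Serpina3g transcript and 6.90% of those of Serpina3n occur in transcripts of other genes, among them Serpina3f, Serpina3i and Serpina3c. Among the neighbouring serpins of the cluster, Serpina3b, Serpina3i and Serpina3j had 0 counts in all dishes, Serpina3c, Serpina3f and Serpina3m at most 1 count in a dish, and Serpina3k 4, 10 and 3 counts in control and 6, 1 and 1 in hPARG dishes.

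Ptx3, the long pentraxin, was the gene of the group with the highest level and the smallest difference. It had 1837, 2509 and 2208 counts in control and 1661, 1993 and 1763 counts in hPARG dishes. The lowest control dish, number 1, was under all 3 hPARG dishes in CPM, so the groups overlapped. The mean level was 94.6 ± 19.9 CPM in control and 79.7 ± 3.16 CPM in hPARG dishes (SD, n = 3). The log2 ratio was -0.25 (standard error 0.159, FDR = 0.999 by edgeR's quasi-likelihood test). In same-numbered pairs the hPARG dish held 106%, 76.1% and 77.7% of the control level, and the log2 fold change stayed between -0.40 and -0.14 over all alternatives without a call.

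**Figure D3:**
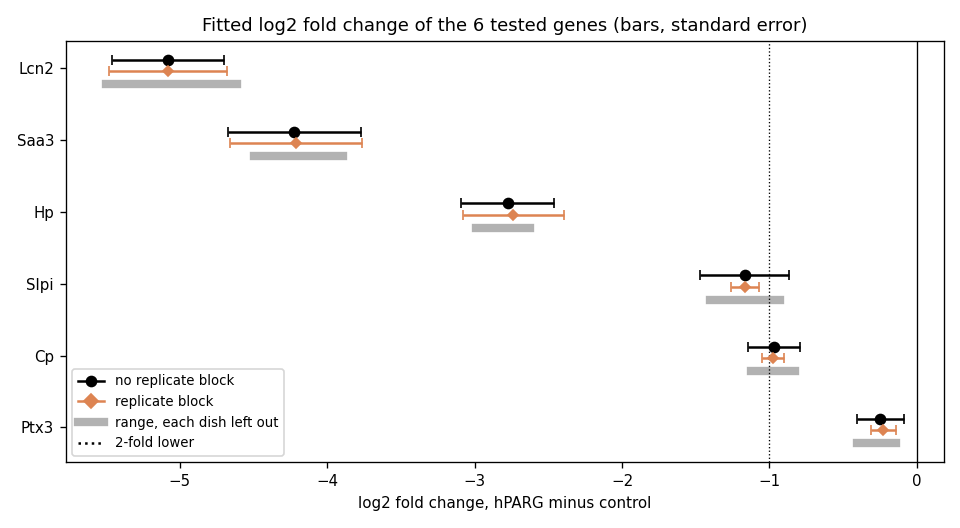
Fitted log2 fold change, hPARG minus control, of the 6 tested genes with standard errors, without (black) and with (orange) the replicate block, and the range over the fits that left out 1 dish (grey). Lcn2, Saa3 and Hp lie at or below -2.62 in every one of these fits, Slpi and Cp lie near the dotted 2-fold line, and Ptx3 lies near 0.

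The spread between dishes of one group, which entered the results known at selection only through their tests, also differed among the 6 genes. Slpi had a coefficient of variation of 31.0% in control and 32.7% in hPARG dishes, against medians of 11.6% and 12.3% in the 1151 genes of the same decile of mean level. That placed it above 97.6% and 99.0% of those genes. Cp varied by 14.9% and 20.8%, against medians of 11.2% and 11.5%. Ptx3 varied by 21.0% in control but by 3.97% in hPARG dishes. In Lcn2 the value was 12.3% in control and 64.8% in hPARG dishes, the latter from 5, 1 and 4 counts.

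Slpi and Cp deviated alike within the groups. Dish 2 of Slpi lay 0.55 below the control mean and 0.56 below the hPARG mean on the log2(CPM + 0.5) scale. Dish 2 of Cp lay 0.22 and 0.31 below the means on the same scale. Over the 6 dishes, the deviations of Slpi and Cp from their group means correlated with r = 0.903, whereas those of Ptx3 correlated with Slpi at r = -0.390 and with Cp at r = -0.626. These 6 values share libraries and group means and are given as a description. Saa3 was also lowest in dish 2 of both groups, by 0.28 and 0.12 on that scale. Dish 2 was the highest of both groups in Ptx3. Being lowest in dish 2 of both groups was common in the libraries (31.1% of all tested genes), as was being highest there (35.0%). The deviation of dish 2 followed the exon length of genes (Spearman's rho of 0.540 in control and 0.533 in hPARG across 11509 genes, which are not independent replicates). Slpi has short exons in total (1180 bases, above 3.35% of tested genes), whereas Cp has long ones (9566 bases, above 88.3%), and both were low in dish 2. The part of length in these values was not tested.

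**Figure D4:**
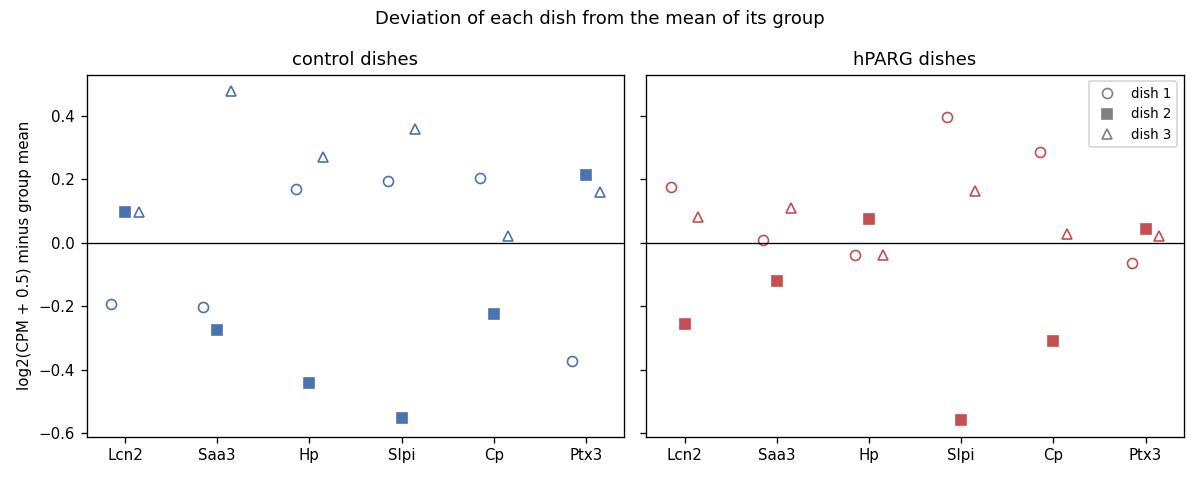
Deviation of each dish from its group mean on the log2(CPM + 0.5) scale for the 6 tested genes, control in the left panel and hPARG in the right, with dish 2 as filled squares. Dish 2 lies lowest for Slpi, Cp and Saa3 in both panels and highest for Ptx3 in both.

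By Pearson's correlation of log2(CPM + 0.5) over the 6 dishes, the genes with patterns most like Lcn2 were Cxcl5 (r = 0.998), Med22 (r = 0.993) and C3 (r = 0.992). Cxcl5, a neutrophil-attracting chemokine, had a fitted log2 ratio of -2.55 (FDR = 0.00153) and C3, the central complement component, one of -2.80 (FDR = 0.00602), both by edgeR's quasi-likelihood test, whereas Med22 had -0.23 (FDR = 0.999). For Saa3 they were Unc45a, Wdr53 and Tprkb (r from 0.992 to 0.994), and for Hp Gypc, Arl8b and Rrm2 (r from 0.990 to 0.996). Slpi was most like Ddx31, Rpa2 and Abcf2 (r from 0.992 to 0.995), Cp most like Stc2, Zbed5 and Ccn5 (r from 0.991 to 0.998), and Ptx3 most like Rnd1, Trim46 and Mynn (r from 0.968 to 0.996). These last 15 genes were not called without the block. With 6 dishes such values are easily high, as between 45 (Ptx3) and 258 (Slpi) other genes exceeded r = 0.9, so they are a description.

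Genes around the 8 were compared as local context. Within 100000 bases of them lay 55 other genes of the table, of which 23 passed the filter. By edgeR's quasi-likelihood test 0 of the 23 were called, beside 0.0869% of all tested genes. An unadjusted p under 0.05 was found for 2, beside 455 of all 11509 tested genes. The log2 fold changes of these 23 ran from -0.51 to 0.49. Those extremes were Gm20458 near Slpi (-0.51, standard error 0.199) and Veph1, whose span holds Ptx3 (0.49, standard error 0.256). The 2 closest tested neighbours of Lcn2, 1110008P14Rik and Ciz1, had log2 fold changes of 0.02 and 0.11, and Txnl4b, 1077 bases from Hp, had 0.09 (standard error 0.145). Beside Slpi, the seminal vesicle genes Svs3a, Svs3b, Svs4, Svs5 and Svs6 had 0 counts in all dishes.

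Other genes of the same functions were taken from 6 lists of 145 genes, of which 144 were in the table and 55 passed the filter. By edgeR's quasi-likelihood test 0 of the 55 were called without the replicate block, and 15 had an unadjusted p under 0.05, of which 14 were lower in hPARG dishes, beside 455 of all 11509 tested genes with such a p. With the block 1 was called (Nfkbiz). At any fold, 14 lower and 2 higher genes of the 55 had an FDR under 0.05 with it, beside 330 of all 11509. Of the 55, 43 had a log2 fold change below 0, beside 49.1% of all tested genes. DESeq2 and the likelihood ratio test called 0 of the 55.

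Most classic acute-phase and antimicrobial genes were barely transcribed in these cells. Of 25 further acute-phase genes 4 passed the filter, among them Lbp, Alb and Trf with overlapping groups, and 11 had at most 3 counts in every dish. Of 30 antimicrobial and whey acidic protein genes 3 passed (Lyz2, Ang and Rnase4), and 14 had 0 counts in every dish. Of the clade A serpins and long pentraxins, 24 were in the data and 1 passed, the pentraxin receptor gene Nptxr. Its level was 64.5 ± 12.8 CPM in control and 68.5 ± 14.2 CPM in hPARG dishes (SD, n = 3). Lyz2, a lysozyme, was at 6.48 ± 1.85 and 6.20 ± 1.78 CPM in control and hPARG dishes (SD, n = 3).

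The 11 tested genes for receptors, ligand partners and target proteases had a median log2 fold change of -0.06. Slc22a17, a receptor for Lcn2, did not pass the filter, with 12, 10 and 2 counts in control and 14, 10 and 3 in hPARG dishes. Tlr2, a receptor for bacterial lipoproteins, had 291, 249 and 291 counts in control and 179, 157 and 153 in hPARG dishes. These groups were separated, with a log2 ratio of -0.72 (standard error 0.150) and an FDR of 0.419 without and 0.00903 with the block. Tnfaip6, which binds Ptx3 in the extracellular matrix, had 10.8 ± 2.54 and 7.88 ± 0.616 CPM (SD, n = 3), and its groups overlapped. Among 12 tested genes of iron and copper handling, 4 had all hPARG dishes below the control dishes (Tfrc, Slc11a2, Hmox1 and Steap3), beside 6.00% of all tested genes. Hmox1, which degrades heme, was at 80.5 ± 1.26 and 60.4 ± 3.01 CPM in control and hPARG dishes (SD, n = 3). Its log2 ratio was -0.41 (standard error 0.0911), at an FDR of 0.468 without and 0.00301 with the block. The ferritin genes Fth1 and Ftl1 had log2 fold changes of -0.17 and -0.06.

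Among 24 tested upstream regulators of the acute phase, 10 had all hPARG dishes below the control dishes, beside 6.00% of all tested genes, and the median log2 fold change was -0.24. In 1, the IL-1 receptor gene Il1r1, they lay above (log2 fold change 0.24). Of the NF-kB subunit genes, Relb had separated groups, at a log2 fold change of -0.60. Nfkb1, Nfkb2, Rela and Rel had overlapping groups, with log2 fold changes from -0.35 to -0.22. By edgeR's quasi-likelihood test with the block, the FDR of these 4 was 0.101, 0.0246, 0.0164 and 0.183, and without it 0.999 for each. Groups also overlapped for the receptor genes Il17ra, Il17rc and Il6st, at -0.09, -0.11 and -0.15. Nfkbiz, the IkB-zeta coactivator of NF-kB and C/EBP targets such as Lcn2, had 815, 863 and 651 counts in control and 325, 389 and 412 in hPARG dishes. Its log2 ratio was -0.999 (standard error 0.132) at an FDR of 0.0620. With the block it was called, at an FDR of 0.000145 and a log2 ratio just past the 2-fold line. Cebpd had 531, 433 and 500 counts in control and 285, 281 and 231 in hPARG dishes. Its log2 ratio was -0.84 (standard error 0.134), at an FDR of 0.167 without and 0.00123 with the block. Its relative Cebpb was at 195 ± 6.75 and 137 ± 24.2 CPM in control and hPARG dishes (SD, n = 3), a log2 ratio of -0.51 at an FDR of 0.766 without and 0.00234 with the block. The log2 fold changes of Relb, Bcl3, Lif and Irf1 lay between -0.61 and -0.44, with separated groups and FDR from 0.419 to 0.713. With the block their FDR was 0.00144, 0.0214, 0.000612 and 0.00691, without a call. Nfkbia, the IkB-alpha inhibitor of NF-kB, was not on the lists and is named because its result was known. It was among the 10 genes called, with 68.5 ± 4.37 CPM in control, 31.7 ± 3.47 CPM in hPARG dishes (SD, n = 3), a log2 ratio of -1.11 and an FDR of 0.0216 by edgeR's quasi-likelihood test. Stat3, Socs3 and Il6ra, of the IL-6 pathway, had log2 fold changes of 0.09, -0.07 and 0.04 with overlapping groups. Il6 itself did not pass the filter, with 6, 11 and 11 counts in control and 4, 3 and 5 in hPARG dishes.

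**Figure D5:**
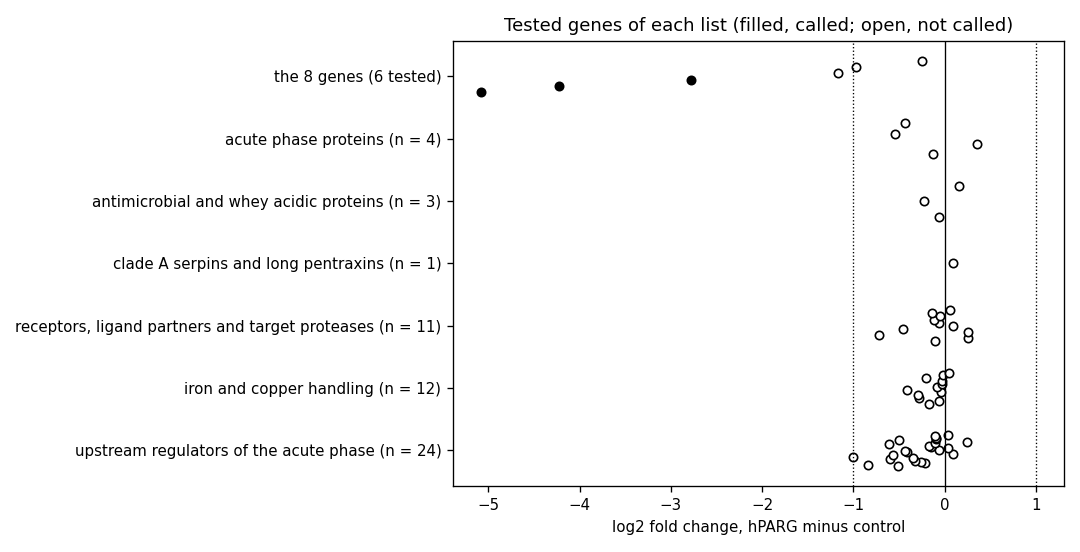
Log2 fold change, hPARG minus control, of the tested genes of the 8 and of each of the 6 lists, with filled points for genes called by edgeR's quasi-likelihood test without the replicate block and open points for the others. The 3 filled points are Lcn2, Saa3 and Hp, and the lowest point of the 6 lists is Nfkbiz at -0.999.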

How the data were processed

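Poly(A) RNA of 6 dishes was sequenced. The authors trimmed the reads and mapped them to GRCm38 (Ensembl release 96) in CLC Genomics Workbench 12.0, with up to 10 hits per read. The strand setting is not given in the sources used here. The authors deposited counts per gene as whole numbers without normalization, which were tested here, and RPKM values, counts scaled by gene length and library size, which were used for levels between genes. The table also holds TPM, CPM and the authors' own fold changes and p-values, which were not used. The labels name wells and the methods dishes.

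Genes were kept with filterByExpr (minimum count 10), scaled by TMM and tested in edgeR 4.0.16 (under R 4.3.3) by glmQLFTest after glmQLFit, all 6 dishes, no block, as the study's methods name no pairing. Standard errors are the absolute log2 fold change over the square root of F. Genes were called at a Benjamini-Hochberg FDR under 0.05 and more than 2-fold. The alternatives were a replicate block, DESeq2 1.42.0, the likelihood ratio test, other scalings and filters, each dish left out, and both dishes numbered 2 left out. The 8 genes and all lists were chosen with earlier results of these data known. The names given follow a rule: the 8 genes, the 3 most correlated others of each, list genes that were called, had at least 10 CPM or an unadjusted p under 0.05, and tested neighbours, while other genes were named after their values were seen. Deviations of same-numbered dishes from their group means correlated with r = 0.188, 0.742 and 0.341 for numbers 1, 2 and 3 on log2(CPM + 0.5). With edgeR's prior count of 2 these were 0.0963, 0.610 and 0.168. Between different numbers, control dish 3 and hPARG dish 1 gave 0.463 and 0.335 on the 2 scales, and control dish 1 and hPARG dish 3 gave 0.203 and 0.207. The other such pairs, each with a dish 2, were negative. Only dish 2 thus stood apart, and the labels' numbers are not shown to be a pairing. The block by these numbers is given beside results where it changes a call. It is also given for some other genes, whose calls it does not change. The fits were also run on simulated counts, with the same relative spread set for every gene and no dish effect such as that of dish 2. That run therefore does not show how well either fit suits these data. An exact permutation test of 3 dishes against 3 cannot give a p under 0.1. Results of a few list genes are not reported here.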

Additional observations from a re-analysis of the deposited data

How the results depend on the processing

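The number of genes called, 10 without the replicate block, was 16 with no filter on low counts, 23 with the replicate block, 22 with DESeq2, 30 with the likelihood ratio test and 19 without both dishes numbered 2, and it ran from 3 to 13 when each dish was left out in turn, the lowest being without hPARG dish 1 (3) and hPARG dish 3 (5). The number of the 8 genes called, 3 in the test reported, was 1 where at least 10 counts were required in every dish, which removed Lcn2 and Saa3 from the test, and ran from 1 to 3 when each dish was left out in turn. It was 4 with the block. Of the 55 tested list genes 0 were called without the block, and 1 (Nfkbiz) was called with the replicate block, and also where low counts were not filtered. When each dish was left out, the number ran from 0 to 0. The block changed no other call of the 8 genes or the list genes than those of Slpi and Nfkbiz. No log2 fold change of the 6 tested genes reversed in any alternative. Of 82 values of these genes under the alternatives, 69 kept their status, called or not called by FDR and fold jointly. Either threshold alone could be crossed. Among the 69 are all values of Cp and Ptx3, which no alternative called. The call was lost for 9 values (Saa3 and Hp, each with 1 dish left out) and gained for 4 (Slpi). Depth limits Lcn2, Saa3, Serpina3g and Serpina3n, which lie near 3 counts in hPARG dishes.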
